A study of Mus musculus with 24 samples.

Results

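The genes described here are 6 abundant long noncoding RNAs of mouse cortex: Malat1, Neat1, Meg3, Rian, Mirg and Miat. They were chosen by symbol, for their nuclear retention or for their place in an imprinted cluster, and are 6 of the 14769 genes listed in at least 1 of 4 deposited tables. All 6 were in every table. RNA was extracted from cortex of male mice, 3 to 4 months old, after transient middle cerebral artery occlusion (tMCAo), in which a filament blocked the artery for 1 h and was then withdrawn, with 1 day of reperfusion. Each of the 12 animals gave a library marked CL and a library marked PI, abbreviations that the labels do not spell out; the titles give both to the same numbered animal. Wild-type animals (WT) and animals lacking ciRS-7 (KO), the circular RNA Cdr1as that binds the microRNA miR-7, gave 6 libraries in each of the 4 groups, and all carry the strain name C57BL/6N-Cdr1asem1Nikr. No unoperated animal was analysed here, so PI was read against CL of operated animals, and every level refers to bulk tissue, in which fewer cells of a type and less RNA per cell cannot be told apart.

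Long noncoding RNAs that stay in the nucleus are known as parts of nuclear bodies or as partners of chromatin regulators. Malat1 lies in nuclear speckles beside splicing factors, Neat1 is the scaffold on which paraspeckles are built, and Miat (Gomafu) forms nuclear domains in neurons and binds splicing factor Sf1. Meg3, Rian and Mirg are made from the maternal copy of the Dlk1-Dio3 imprinted cluster: Meg3 is a nuclear RNA linked to the chromatin regulator PRC2, Rian hosts C/D box small nucleolar RNAs, and Mirg hosts a large microRNA cluster. In brain, Neat1 is known as a transcript induced by cell stress, and the imprinted transcripts and Miat are known as neuron-rich.

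The loci fall in 3 places of the mouse genome (GRCm38, GENCODE M21). Malat1 (chr19:5795690-5802672, minus strand) and Neat1 (chr19:5824708-5845478, minus strand) are neighbours, 22035 bases apart. Meg3 (chr12:109541001-109571726), Rian (chr12:109603940-109661716) and Mirg (chr12:109729764-109749460) follow one another on the plus strand, with gaps of 32213 and 68047 bases. Miat (chr5:112213228-112229395, minus strand) stands alone. Inside the Rian span the annotation places 13 small nucleolar RNAs and 4 microRNAs, and inside the Mirg span 15 microRNAs, so that reads of a host and of its embedded RNAs may have been counted together. Other annotated genes overlap 4 members and have no row in the tables: Gm37376, Gm26906 and Gm26953 run antisense to Malat1, Meg3 and Miat, and Gm26945 lies on the strand of Rian. Whether the counting used strand is not given in the sources used here, so reads of these pairs could not be told apart.

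Because the deleted circle is a miR-7 binding RNA, the miR-7 sequences and their perfect 7-base seed matches in the members are shown. The microRNAs are from RefSeq (GRCm38.p6), with the seed, bases 2 to 8, in capitals; both share 1 seed.
miR-7a-5p: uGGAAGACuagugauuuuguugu
miR-7b-5p: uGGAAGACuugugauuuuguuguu
In the longest annotated transcript of each member, the reverse complement of the seed, GTCTTCC, occurred at 1 place in Neat1, at 1 place in Miat, at 2 places in Meg3 and at 2 places in Rian, and not in Malat1 or Mirg. Each site is shown with its flanks from the transcript, with the match in capitals.
Neat1 bases 18985 to 18991: ggttgaaggttGTCTTCCatgtgttatgg
Meg3 bases 1155 to 1161: aggcctgtcgcGTCTTCCtgtgccatttg
Meg3 bases 8826 to 8832: ccttagctctaGTCTTCCcatgcacctca
Rian bases 1269 to 1275: tatctcaagctGTCTTCCctttcctacct
Rian bases 2414 to 2420: gtctaggaataGTCTTCCtttataattag
Miat bases 1973 to 1979: gtagctcttctGTCTTCCagagtcatcca
The Neat1 and Miat matches were followed by an A. Per kilobase of transcript this came to 0.0481 in Neat1, 0.109 in Miat, 0.137 in Meg3 and 0.247 in Rian, beside 0.11 over 15671 annotated long noncoding transcripts. Among 50 such transcripts of the length of Rian, 52.0% held at least 1 match, so the presence of a match is common at these lengths. A letter match is a description and not a bound site.

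Promoter sequence is shown for Meg3, Rian and Miat, the 3 members called lower in PI than in CL cortex of KO animals. The windows are from RefSeq (GRCm38.p6), from 250 bases before to 50 bases after the listed start. Capitals mark motif letters found on either strand.
Meg3, chr12:109540746-109541045, plus strand: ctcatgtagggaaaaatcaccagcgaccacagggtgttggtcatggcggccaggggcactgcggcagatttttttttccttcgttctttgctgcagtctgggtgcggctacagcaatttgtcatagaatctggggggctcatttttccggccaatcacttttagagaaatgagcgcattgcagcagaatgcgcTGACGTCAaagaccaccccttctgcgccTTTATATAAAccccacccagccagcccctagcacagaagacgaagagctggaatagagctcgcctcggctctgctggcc
Rian, chr12:109603695-109603994, plus strand: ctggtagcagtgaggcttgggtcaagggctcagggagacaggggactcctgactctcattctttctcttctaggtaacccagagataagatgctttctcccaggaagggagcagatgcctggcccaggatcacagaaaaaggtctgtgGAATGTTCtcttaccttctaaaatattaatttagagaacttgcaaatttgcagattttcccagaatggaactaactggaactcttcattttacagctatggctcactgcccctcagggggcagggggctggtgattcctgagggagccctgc
Miat, chr5:112228899-112229198, minus strand: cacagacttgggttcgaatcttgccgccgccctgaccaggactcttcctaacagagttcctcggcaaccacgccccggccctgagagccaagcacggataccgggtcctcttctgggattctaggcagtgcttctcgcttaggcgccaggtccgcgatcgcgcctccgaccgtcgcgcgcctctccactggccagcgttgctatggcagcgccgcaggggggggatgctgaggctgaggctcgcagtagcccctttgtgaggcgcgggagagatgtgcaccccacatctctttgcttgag
In the Meg3 window the letters TGACG of the cyclic AMP response element core were found on both strands, at positions -57 and -54 from the start, and TATAAA on both strands, at -29 and -25. TGACG stood in 20.8% and TATAAA in 13.6% of 32851 mouse promoter windows of this length. The Rian window held 1 match to GAANNTTC, the paired heat shock element letters, which 7.86% of windows hold. The hypoxia response core ACGTG, held by 19.6% of windows, and the AP-1 letters TGANTCA, held by 7.81%, were in none of the 3 windows, and the Miat window held no match to any of the 5 motifs searched. RefSeq lists a second Meg3 start, with the window chr12:109545148-109545447, which held none of the 5. The Mirg window, chr12:109734731-109735030, held none either. The Mirg and Miat windows lie inside the spans given above for these genes, so sequence before those spans was not searched. For Neat1 the promoter source used here has no window, so none was searched. The window of Malat1, which was not called, held TGACG at 3 positions and ACGTG at 1, so TGACG was not limited to a member that fell.

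Effective depth, a scaled library size, was 3.73 to 10.5 M reads per library, as read back from the step between low values. The shallowest was CL KO replicate 6, at 3.73 to 3.82 M reads. The value of a library shifts with the scaling, so it is not a plain read count. In that library a step 2 times finer would hold 88.9% to 90.8% of the low values, beside 88.2% to 89.3% at the step used. In the other libraries the finer step would hold 59.5% to 90.5%, beside 77.3% to 90.2% at the step used. Depths and counts are thus the smallest that account for the values. They could be larger, also outside CL KO replicate 6. Counting error was small for most members: Malat1 had 68523 to 181867 reads per library, Meg3 10311 to 25094, Rian 3721 to 10544, Miat 628 to 1787, Neat1 342 to 3043 and Mirg 188 to 524. At the lowest Mirg count, which is that of CL KO replicate 6, counting alone gives an SE of 0.11 on the log2 scale. Without this library the lowest depth was 5.25 M reads and the lowest counts were 85503 for Malat1, 4883 for Rian, 688 for Miat, 462 for Neat1 and 270 for Mirg, where the counting SE is 0.088. Cdr1as, the deleted gene, was at 3386 to 3809 CPM (reads of a gene scaled to the total of its library) in CL WT and 2594 to 3004 in PI WT, and at most 0.169 CPM in either KO group, over the recoverable libraries. All 14 neuron markers were listed, with a summed level of 9786 to 10380 CPM in CL WT, and 8 of 10 striatum markers summed to 230.5 to 294.1 CPM. Most of these neuron markers are shared by brain regions, so they show neuronal tissue and do not test the cortical label. The deposited log2 CPM values are drawn in at both ends of every group: the 2 lowest libraries carry 1 shared value, as do the 2 highest. The second lowest and second highest libraries were solved back from these, the outermost ones could not be, and levels are given as the second lowest, the median and the second highest of 6. Groups are said to overlap or not by their 4 inner libraries, and differences by animal use the deposited values, so the outermost libraries count there only as drawn in. Where the inner libraries do not overlap, the deposited values of all animals must differ in the same direction, however libraries are paired. Such agreement by animal is then no further support. A group's mean is the trimmed mean of its 4 inner libraries, an SE of a difference is the moderated one, and a gene was called changed at a Benjamini-Hochberg adjusted p under 0.05 over all genes of its table (moderated trimmed-mean test in limma, two-sided).

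The label of abundance held for some members more than for others. Ranked by reads, without regard to length, Meg3 stood above 99.8% to 99.9% of listed genes, Rian above 99.5%, Miat above 88.3% to 91.6%, Neat1 above 81.9% to 93.4% and Mirg above 71.8% to 73.3%. Per kilobase of annotated exon the order was Malat1 (2201 to 2670 CPM per kb over groups and tables), Meg3 (106 to 142), Rian (47.4 to 56.2) and Miat (13.0 to 17.4), and these 4 kept that order in all 8 group-by-table averages. Mirg (6.52 to 7.01) and Neat1 (3.77 to 9.19) were lowest, and Neat1 passed Mirg only in PI WT. Neat1 is divided here by the full 20771 bases of its locus, although a short isoform covers only its 5′ part, and the tables have 1 row for both isoforms. Together the 6 RNAs took 1.80% to 2.41% of the summed listed CPM of a library, and Malat1 alone 1.48% to 2.02%.

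Neat1 was the member that rose, and it rose in PI cortex of both genotypes. In WT animals it was at 6.20, 6.39 and 6.56 log2 CPM in CL and at 6.90, 7.40 and 8.51 in PI. The inner PI libraries all lay above the inner CL libraries. The difference was 1.16 (SE 0.34, n = 6 against 6; 95% interval 0.43 to 1.90), a 2.24-fold higher level, with an adjusted p of 0.0462 in limma. It was the 1 member of 6 called in WT, in a table where 10.6% of 14489 genes were called (5.20% higher and 5.40% lower).

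The PI WT libraries of Neat1 were widely spread: the inner 4 spanned 1.61 on the log2 scale, against 0.36 in CL WT and 0.20 in PI KO. By animal, with both of its libraries, the deposited value was higher in PI by 0.61 to 1.75. That all 6 WT animals were higher follows from the lack of overlap. Animals 1 and 6 held the highest 2 values in both CL and PI. The call depended on how the variance was estimated. With the variance of Neat1 alone, not moderated over genes, the adjusted p was 0.242; with a prior that ignores the trend with expression it was 0.15. Blocking on the animal gave an adjusted p of 1.48e-10, but that fit shrinks the gene's own variance heavily towards that of other genes, and the same block without moderation gave 0.293.

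In KO animals Neat1 was at 6.13, 6.28 and 6.57 log2 CPM in CL and at 6.87, 6.95 and 7.06 in PI. The groups did not overlap and the PI libraries lay close together. The difference was 0.64 (SE 0.11, n = 6 against 6; 95% interval 0.40 to 0.89), a 1.56-fold higher level, with an adjusted p of 0.0037 in limma. The deposited value was higher in PI by 0.36 to 0.90, in all 6 KO animals as the lack of overlap requires. Without moderation the adjusted p was 0.0692, and 0.232 without moderation and with the animal as a block.

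The size of the Neat1 rise did not differ detectably between genotypes. The KO change minus the WT change was -0.52 (SE 0.41; 95% interval -1.37 to 0.33; adjusted p = 0.992, limma). In PI cortex the KO libraries were at 6.91, 6.99 and 7.10 log2 CPM and the WT libraries at 6.92, 7.42 and 8.54, so that the groups overlapped at the low end and the highest values were WT. That difference was -0.58 (SE 0.34; adjusted p = 0.867, limma). In CL cortex it was -0.06 (SE 0.13; adjusted p = 0.984, limma).

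**Figure D1:**
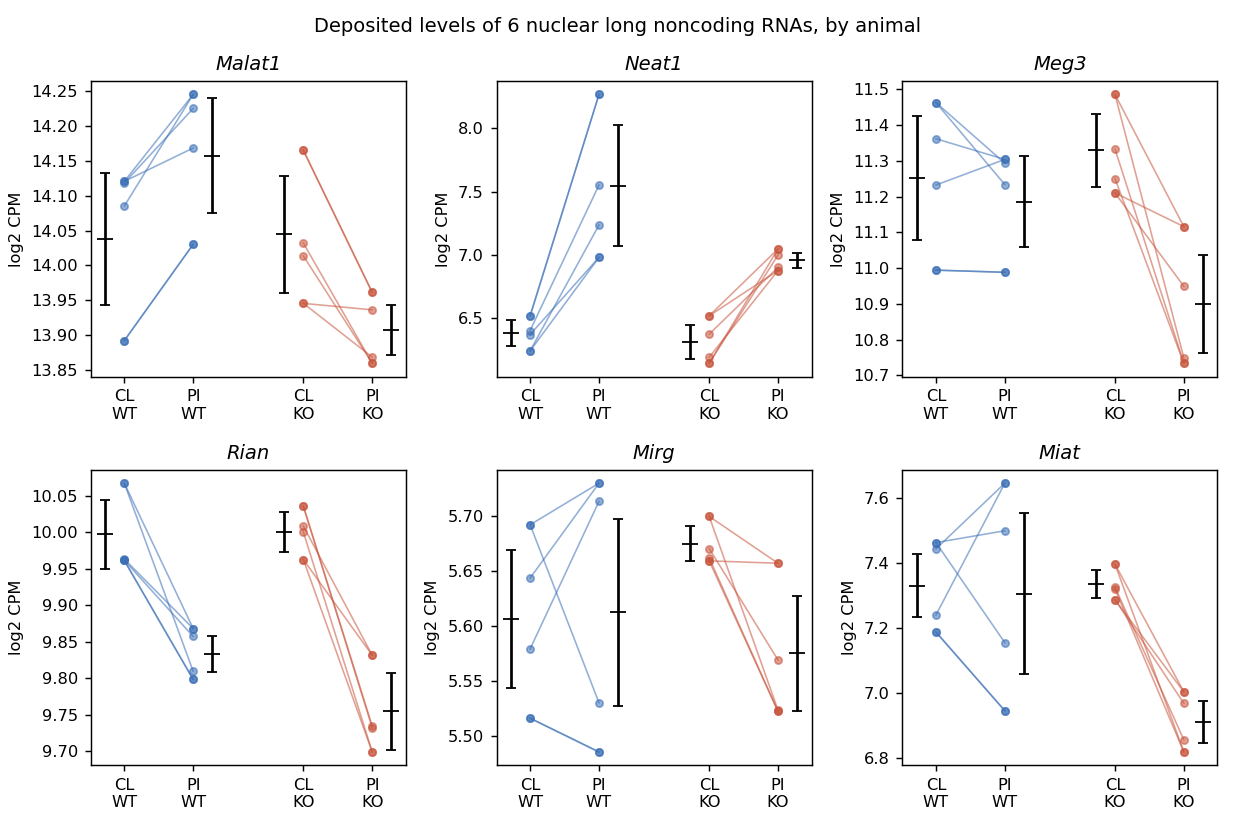
Deposited log2 CPM of each member (vertical axes, 1 panel a gene, each with its own range) in CL and PI libraries of WT (blue) and KO (red) animals; a line joins the libraries of an animal, darker points are 2 libraries with 1 shared value, and black bars give the trimmed mean ± SE. Neat1 lines slope up in all 12 animals, Rian lines slope down in all 12, and Miat lines slope down in all 6 KO animals and in 3 of 6 WT animals. The full agreement of these Neat1, Rian and KO Miat lines follows from inner libraries that do not overlap.

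Meg3, Rian and Miat fell in PI cortex of KO animals. With Neat1 they made 4 of 6 members called, 1 higher and 3 lower, in a table where 10.0% of 14338 genes were called (5.11% higher and 4.94% lower). The inner libraries did not overlap for 4 members, the same 4, where 26.8% of all genes had no overlap. In WT this held for 2 members, Neat1 and Rian, where 26.3% of genes had none. The 3 that fell are known as neuron-rich, and neuron markers were lower on the same side: in KO, 4 of 14 fell (Snap25, Syt1, Nefl and Syn1) and Gad2 rose, with summed levels of 8314 to 9125 CPM in PI and 9691 to 10040 in CL. In WT 5 of 14 neuron markers fell, with sums of 8518 to 9347 CPM in PI and 9786 to 10380 in CL, while neither Meg3 nor Miat was called. Lower sums were not limited to neuron markers. Those of 10 astrocyte markers were 7257 to 8016 CPM in PI KO and 8706 to 9235 in CL KO. In WT they were 7433 to 7912 in PI and 8679 to 9182 in CL. Of these 10, 2 fell and 1 rose in KO, and 3 fell and 1 rose in WT. Oligodendrocyte sums were 1628 to 2271 CPM in PI WT and 2307 to 2520 in CL WT, and overlapped in KO. Of the reactive astrocyte genes listed, 10 of 11 rose in WT and 9 of 10 in KO, and 5 of 10 microglia markers rose and 1 fell in each genotype. The part of such marker changes in the results on the members was not tested.

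Meg3 was at 11.20, 11.29 and 11.54 log2 CPM in CL KO and at 10.73, 10.85 and 11.17 in PI KO. The highest recoverable PI library lay just under the lowest recoverable CL library. The difference was -0.43 (SE 0.13, n = 6 against 6; 95% interval -0.70 to -0.16), so the level fell by 25.8%, with an adjusted p of 0.0483 in limma. The call is near the threshold: it was lost with a prior without the trend (0.15) and without moderation (0.215). It was also lost with groups scaled to the summed listed CPM less the 6 members, in place of the deposited scaling (0.0768). That setting changes the scaling as a whole, and the part of the members' own share was not tested. In WT, Meg3 was at 10.92, 11.30 and 11.50 in CL and at 10.91, 11.26 and 11.31 in PI, overlapping groups whose difference of -0.07 (SE 0.15; 95% interval -0.40 to 0.27) had an adjusted p of 0.849 in limma.

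Rian had a lower deposited value in PI in all 12 animals, which follows from the lack of overlap in both genotypes. In KO it was at 9.95, 10.00 and 10.04 log2 CPM in CL and at 9.69, 9.73 and 9.86 in PI. The difference was -0.25 (SE 0.06, n = 6 against 6; 95% interval -0.37 to -0.12; adjusted p = 0.0206, limma), so the level fell by 15.7%. This call too was lost with scaling to the summed listed CPM less the members (0.0564). It was also lost with a prior without the trend (0.0953) and without moderation (0.0773). In WT it was at 9.96, 9.96 and 10.10 in CL and at 9.79, 9.83 and 9.87 in PI, again without overlap. The WT difference of -0.16 (SE 0.06; 95% interval -0.28 to -0.04) missed the threshold, with an adjusted p of 0.0858 in limma. It passed with the animal as a block (0.0452) and with each group centred on its median gene (0.0384), and did not with the block and no moderation (0.264). The KO change minus the WT change was -0.08 (SE 0.08; 95% interval -0.25 to 0.09).

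Miat gave the smallest adjusted p of the 6 in KO. It was at 7.28, 7.32 and 7.42 log2 CPM in CL and at 6.81, 6.91 and 7.02 in PI, with a clear gap between the groups. The difference was -0.42 (SE 0.07, n = 6 against 6; 95% interval -0.58 to -0.27; adjusted p = 0.00302, limma), so the level fell by 25.5%. Miat was lower in PI by 0.28 to 0.58 in the deposited values of all 6 KO animals, as the gap between the groups requires. It was the only member called without moderation (0.0429), though not with the block and no moderation (0.204). In WT, Miat was at 7.17, 7.34 and 7.47 in CL and at 6.88, 7.33 and 7.69 in PI. The WT animals went both ways, 3 higher and 3 lower in PI, from -0.31 to 0.41, and the difference of their groups was -0.02 (SE 0.19; 95% interval -0.43 to 0.38; adjusted p = 0.958, limma). The KO change minus the WT change was -0.40 (SE 0.22; 95% interval -0.87 to 0.07; unadjusted p = 0.0895, adjusted p = 0.992, limma), so a call in one genotype and none in the other is not a shown difference between them.

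Mirg, the microRNA host at the end of the cluster, was not called in any comparison. In KO it was at 5.66, 5.67 and 5.71 log2 CPM in CL and at 5.52, 5.55 and 5.69 in PI. The groups met at their ends, and the difference was -0.10 (SE 0.07; 95% interval -0.25 to 0.05; adjusted p = 0.421, limma). All 6 KO animals had a lower deposited value in PI, with the outermost libraries only as drawn in. In WT the difference was 0.01 (SE 0.09; 95% interval -0.19 to 0.20), with 3 of 6 animals higher in PI. The 3 imprinted transcripts thus had KO differences of -0.43, -0.25 and -0.10, of which the Meg3 and Rian values were called.

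Malat1, the speckle RNA, was not called in any comparison, and its deposited values lay in opposite directions in the genotypes. In WT it was at 13.83, 14.10 and 14.12 log2 CPM in CL and at 13.98, 14.20 and 14.25 in PI. In KO it was at 13.92, 14.02 and 14.21 in CL and at 13.86, 13.90 and 13.97 in PI. The inner libraries overlapped in both pairs of groups. All 6 WT animals had a higher deposited value in PI, by 0.05 to 0.16. All 6 KO animals had a lower one, by 0.01 to 0.20. These are not 6 separate differences: drawn-in values gave WT animals 2 and 5 the same 0.14, and KO animals 2 and 6 the same -0.20. The outermost libraries are unknown, so these directions were not read as a paired result. As groups the WT difference was 0.12 (SE 0.10; 95% interval -0.10 to 0.34; adjusted p = 0.539, limma) and the KO difference -0.14 (SE 0.08; 95% interval -0.31 to 0.04; adjusted p = 0.321, limma). The KO change minus the WT change was -0.26 (SE 0.14; 95% interval -0.55 to 0.04; unadjusted p = 0.0817, adjusted p = 0.992, limma), and the test of that difference called 0 of 14211 genes, 0%, with 646 (4.55%) and no member at an unadjusted p under 0.05. Each of these KO and WT changes is relative to the scaled size of the libraries. Malat1 itself is a visible share of the summed listed CPM: 1.51% to 1.62% in PI KO, 1.55% to 1.84% in CL KO, 1.70% to 2.01% in PI WT and 1.48% to 1.75% in CL WT.

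**Figure D2:**
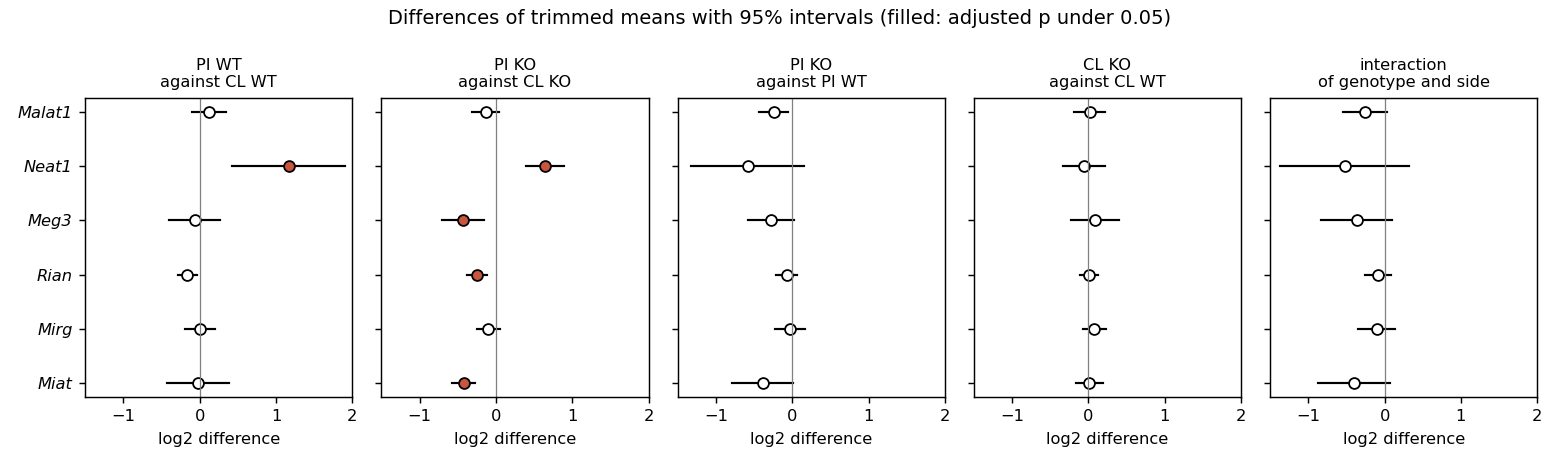
Difference of trimmed means (horizontal axes, log2) with its 95% interval for each member in the 4 comparisons and the interaction, filled where the adjusted p is under 0.05. Filled points are Neat1 in WT (1.16) and Neat1, Meg3, Rian and Miat in KO (0.64, -0.43, -0.25 and -0.42), and no point is filled in the genotype comparisons.

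In PI cortex no member differed between KO and WT at the threshold, where 0.0208% of 14452 genes did (3 genes). All 6 differences were negative. Malat1 came nearest, at 13.89, 13.94 and 14.00 log2 CPM in KO and 14.01, 14.23 and 14.28 in WT. Its inner libraries did not overlap, the 1 member of 6 of which this was true, beside 8.97% of all genes. The Malat1 difference was -0.24 (SE 0.09, n = 6 against 6; 95% interval -0.43 to -0.06; unadjusted p = 0.0139, adjusted p = 0.854, limma). At an unadjusted p under 0.05 stood 5.75% of the genes of this table. The Miat difference was -0.39 (SE 0.18; 95% interval -0.79 to 0.01) and that of Meg3 -0.28 (SE 0.14; 95% interval -0.58 to 0.02), both with an adjusted p of 0.854 in limma. Rian differed by -0.07 (SE 0.06) and Mirg by -0.03 (SE 0.09). The summed level of 13 mitochondrial messenger RNAs was 109600 to 121700 CPM in PI KO and 98360 to 113400 in PI WT, ranges that overlap. That of 10 microglia markers was 235.8 to 280.8 CPM in PI KO and 211.5 to 235.3 in PI WT, ranges that do not, with 9 of the 10 higher in KO, 3 at an unadjusted p under 0.05 and none called. The part of either in the differences was not tested. Limma run on the drawn-in values as deposited called Malat1, Meg3 and Miat here, 3 of the 2388 genes it called; those values understate the spread of every group.

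In CL cortex the estimated differences between genotypes were small. No member was called, where 0.0279% of 14323 genes were (4 genes), and no member had groups without overlap, where 8.67% of genes did. Differences ran from -0.06 (SE 0.13) for Neat1 to 0.09 (SE 0.14) for Meg3, with adjusted p-values of 0.948 to 0.995 in limma, none at an unadjusted p under 0.05, beside 5.73% of all genes, and none called by limma on the deposited values. The intervals show what these data could bound: Rian lay within -0.10 to 0.12, Miat within -0.17 to 0.20, Malat1 within -0.19 to 0.22, Mirg within -0.08 to 0.23, Neat1 within -0.33 to 0.22 and Meg3 within -0.22 to 0.40. By contrast, Cdr1os, the noncoding transcript of the deleted locus, was higher in KO by 1.80 (SE 0.06; adjusted p = 4.94e-09, limma) in CL and by 1.46 (SE 0.07; adjusted p = 1.28e-06, limma) in PI.

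Within groups, Malat1, Meg3 and Miat tended to be high or low in the same libraries, though not in every group. WT animals 2 and 5 were the lowest pair for Malat1, Meg3, Mirg and Miat in CL and again, for the same 4 RNAs, in PI. In CL KO, animals 1 and 4 were the lowest pair and animals 2 and 6 the highest pair for Malat1, Meg3 and Miat. In PI KO the lowest pair was animals 3 and 5 for Malat1 and Meg3, and animals 2 and 5 for Miat. The highest pair there was animals 2 and 6 for Malat1, and animals 1 and 6 for Meg3 and Miat. Animal 2 was thus in the highest pair for Malat1 and in the lowest for Miat. In CL WT, Neat1 had its highest pair, animals 1 and 6, in common with Meg3 and Miat, but its lowest pair was animals 4 and 5. In PI WT the lowest pair of Neat1 was animals 2 and 4 and its highest pair was again animals 1 and 6. The highest pair there was animals 3 and 4 for Meg3 and Miat, and animals 4 and 6 for Malat1. The libraries of WT animals 2 and 5 had effective depths of 8.21 and 7.91 M reads in CL, the deepest of that group, and 9.23 and 7.07 M reads in PI. The part of depth in the shared pairs was not tested.

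For each member, the genes whose levels followed it most closely within groups were ranked by the mean of 2 Pearson correlations, each over the 12 libraries of a table of sides after removing group means, among 7637 genes of at least 4 log2 CPM. The points share libraries, depth and scaling, and the drawn-in ends tie pairs of libraries, so these are descriptions. Meg3 was followed by Snhg11, a small nucleolar RNA host (0.94), E130307A14Rik (0.89) and Gm37899 (0.86), and the last lies in the same imprinted stretch, 97143 bases beyond Meg3 on its strand (chr12:109668869-109677585), between Rian and Mirg. Miat was followed by Safb (0.87), which codes for a nuclear scaffold attachment protein, by Meg3 itself (0.86) and by Abl1 (0.84). Malat1 was followed by Nin and Nav2 (0.88 each) and Apex2 (0.87), Rian by B230334C09Rik (0.93), Gm43829 (0.85) and Gm43341 (0.84), and Mirg by 4933427D14Rik (0.81), Uvssa (0.78) and Zgrf1 (0.76). Neat1 had the weakest likeness, with Gm43843 (0.75), the metallothionein Mt2 (0.72) and the glucose transporter Slc2a1 (0.71), and 0.0393% of genes followed it at 0.7 or above, against 0.642% for Malat1.

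Of 33 other long noncoding RNAs listed for comparison, 24 were measured between sides. In WT, 1 rose and 2 fell, where 10.6% of all genes were called. Mir17hg, host of a microRNA cluster, changed by 1.01 (SE 0.28), Pantr1 by -0.58 (SE 0.09) and the imprinted Peg13 by -0.22 (SE 0.06). The level of Mir17hg was low, at 0.24 log2 CPM in CL WT and 1.24 in PI WT. In KO, 1 rose and 5 fell, where 10.0% of all genes were called. Gas5 changed by 0.36 (SE 0.07), Pantr1 by -0.40, Cdr1os by -0.39, Mir124a-1hg, a host of the neuronal miR-124, by -0.37, Norad by -0.32 and Peg13 by -0.28. The median difference of the 24 was -0.04 in WT, beside 0.01 over all genes, and -0.14 in KO, beside -0.001 over all genes. Pantr1 and Peg13 fell in both genotypes. Gas5, a small nucleolar RNA host, was at 0.19 (SE 0.06) in WT, with an adjusted p of 0.0738 in limma.

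**Figure D3:**
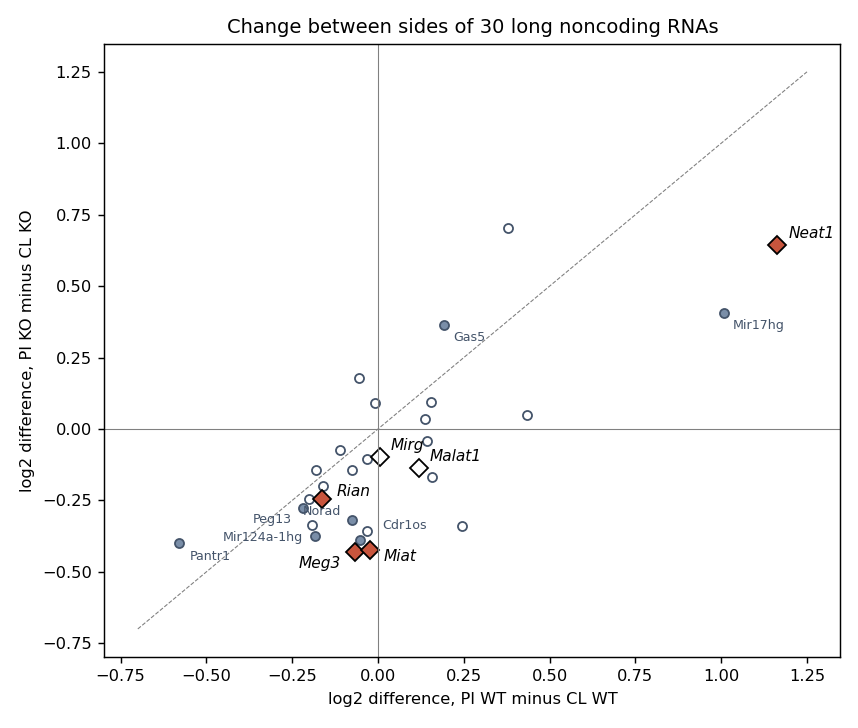
PI minus CL log2 difference in WT (horizontal axis) and in KO (vertical axis) of 30 long noncoding RNAs, the 6 members as diamonds and 24 others as circles, filled where called in at least 1 genotype; the dashed line marks equal change. Neat1 (1.16 and 0.64) stands at the upper right near Mir17hg, whose level was low, at 0.24 log2 CPM in CL WT. Meg3 and Miat lie near 0 on the WT axis and at -0.43 and -0.42 on the KO axis.

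Around Malat1 and Neat1, 11 of 14 listed neighbours were measured, and 2 rose in WT, where 5.20% of all genes rose. They were Sipa1, a Rap GTPase activator, by 0.70 (SE 0.15; adjusted p = 0.00986, limma) and Frmd8 by 0.58 (SE 0.15; adjusted p = 0.0257, limma). In KO none was called and 1 of 11 stood at an unadjusted p under 0.05, beside 24.9% of all genes; Frmd8 was at 0.57 (SE 0.18; adjusted p = 0.0594) and Sipa1 at 0.09 (SE 0.16; adjusted p = 0.799) in limma. The median of the 11 was 0.15 in WT and -0.01 in KO. Of 13 genes in and around the Dlk1-Dio3 cluster, 8 were measured, and Dlk1, Rtl1 and Dio3, its protein-coding imprinted genes, were not among them. In WT none was called and 3 of 8 stood at an unadjusted p under 0.05, beside 23.9% of all genes, the smallest p being that of Begain, at -0.27 (SE 0.09; adjusted p = 0.0815, limma). In KO, Wars, a tryptophan tRNA synthetase, rose by 0.30 (SE 0.08; adjusted p = 0.0342, limma), the 1 of 8 called, where 10.0% of all genes were. No neighbour was called between genotypes, where the smallest p-values were those of Ltbp3 and Slc25a29 in PI and of Sipa1 and Wdr25 in CL.

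Genes for proteins of the same nuclear bodies were described by counts. None of 18 paraspeckle protein genes, all measured, was called in WT or in KO, although Neat1 rose in both: the smallest p-values were those of Matr3 in WT, at -0.15 (SE 0.05; adjusted p = 0.0978, limma), and of Hnrnpr in KO, at -0.18 (SE 0.06; adjusted p = 0.0802, limma). At an unadjusted p under 0.05 stood 2 of the 18 in WT, beside 23.9% of all genes, and 4 in KO, beside 24.9%. Of 22 speckle and splicing genes, 1 rose and 2 fell in WT, where 10.6% of all genes were called. The splicing factor Srsf2 changed by 0.18 (SE 0.05), Srsf5 by -0.23 (SE 0.05) and Luc7l3 by -0.18 (SE 0.05). In KO 2 rose and 2 fell, where 10.0% of all genes were called. Srsf3 changed by 0.25 (SE 0.07), Srsf2 by 0.24 (SE 0.07), Srsf5 by -0.24 (SE 0.05) and the helicase Ddx17 by -0.18 (SE 0.05). None of the 9 measured PRC2 genes was called between sides, and 1 in WT and 0 in KO stood at an unadjusted p under 0.05; Rbbp7 in WT, at 0.16 (SE 0.07; adjusted p = 0.151, limma), and Eed in KO, at 0.18 (SE 0.10; adjusted p = 0.294, limma), had the smallest p-values. No gene of these 3 lists was called between genotypes, 1 in PI and 3 in CL stood at an unadjusted p under 0.05, beside 5.75% and 5.73% of all genes, and Hnrnpr, Srsf11 and Eed had the smallest p-values in PI and Hnrnpa1, Sf3b1 and Jarid2 in CL.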

How the data were processed

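Total RNA of 24 cortex libraries was sequenced after depletion of ribosomal RNA, per the labels' protocols. The deposited tables give log2 CPM values made by the authors, aligned to mm10 per the submitters' processing notes; the aligner, the counter and the normalization are not given in the sources used here. There are 4 tables, each with 2 groups of 6 libraries and scaled separately, so comparisons were made within a table; 0 columns of values were left out. In 100% of genes the 2 lowest and the 2 highest values of a group are equal, at the group's quartiles on the log scale (0.75 and 0.25 weights of neighbouring values).

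The second lowest and second highest values were solved back, 1 value at each end was set aside, and trimmed means of 4 values were compared with Winsorized sums of squares, 6 residual degrees of freedom (12 for the interaction) and limma 3.58.1 variance moderation with a trend (R 4.3.3), adjusted over all genes of a table. On simulated data, 5.73% of unchanged genes had p under 0.05, and 58.7%, 86.3% and 94.7% of genes changed by 0.5, 1 and 2 on the log2 scale were called (PI WT against CL WT, 14489 genes). Effective depth was read from the step between values under 2 CPM, of which 77.3% to 90.2% were whole reads within 0.03 read. The animals are biological replicates per the labels. CL and PI libraries with 1 number are the same animal by title; their deviations from group means correlated at 0.03 to 0.37 in WT and -0.11 to 0.28 in KO. The members and gene lists were chosen with earlier results of these data known. Named genes are the members, the called genes of each list (up to 3 each way in the protein lists) or its smallest p, and the 3 genes most like each member. Alternatives were other scalings, no trend, no moderation, the animal as a block, limma on deposited values, medians, a filter and a pseudocount.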

Additional observations from a re-analysis of the deposited data

How the results depend on the processing

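No direction reversed for any called member. The number of members called in PI WT against CL WT (1) became 2 with each group centred on its median gene, with limma on the deposited values and with the replicate block, and 3 with the block in limma. It became 0 with no trend in the prior and, in alternatives chosen after seeing the data, 0 without moderation, with and without the replicate block. In PI KO against CL KO (4) it became 2 with groups scaled to the summed listed CPM less the members. It became 2 with no trend, 1 without moderation and 0 with the block and no moderation. The replicate block with moderation left it at 4, and limma on the deposited values called 6, with and without the block. In PI KO against PI WT (0), limma on the deposited values called 3, and 4 with a block on replicate numbers, which are only shared between genotypes; for the interaction (0) it called 2. The cause of these differences was not tested beyond the construction of each alternative. In CL KO against CL WT no alternative called a member. The filter at 1 log2 CPM and the pseudocount of 0.5 CPM changed no count of members.

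Calls over all genes, 1537 and 1440 between sides in WT and KO, became 1015 and 739 with no trend, 772 and 605 without moderation, 2275 and 2154 with the replicate block, 2 and 1 with the block and no moderation, 6459 and 6666 with limma on the deposited values, and 6614 and 6759 with that and the block. Between genotypes in PI (3) and CL (4), limma on the deposited values called 2388 and 2311 genes, 1800 and 1868 with the block; the block on trimmed means called 6 and 85. For the interaction (0; 646 at an unadjusted p under 0.05) these gave 1940 and 1. Centring on the median gene subtracted 0.03 and 0.04 from the differences between sides in WT and KO. Scaling to the summed listed CPM less the members, in place of the deposited scaling, subtracted -0.07 and -0.05, which raised them. Same-numbered libraries of the 2 genotypes correlated at -0.20 to 0.19 in PI and -0.21 to 0.25 in CL, and 1 and 3 of 6 correlated best with their own number. Leaving out single libraries was not run, since each deposited value depends on all 6 of its group.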
